A study of Mus musculus with 18 samples.

Results

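Of 18 sequenced libraries, 4 were compared here with the 6 GFP libraries: DP replicates 1 and 2 and the libraries labelled DN replicates 3 and 6. They were the 4 of 7 DP or DN libraries in which both Cx3cr1 and Itgax, the genes whose reporters defined the sort, had high counts, whatever their label. The grouping was therefore chosen from the counts of these 2 genes. The question was which other genes mark macrophages that transcribe both.

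The mice carried the genotype Apoe-/- Cx3cr1GFP Cd11cYFP on a C57BL/6 background, were 7 months old, and had eaten Western Diet for 5 months; all groups shared this. In the Cd11cYFP transgene the Itgax (CD11c) promoter drives YFP. Aortas and carotids of male and female mice were digested, and live CD45+ cells were sorted as GFP+ YFP- (GFP, n = 6), GFP+ YFP+ (DP, n = 4), GFP- YFP+ (YFP, n = 5) or GFP- YFP- (DN, n = 3). Whether replicates were separate mice or pools is not in the labels, so p-values measure the spread between these libraries, which may be technical.

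Cx3cr1 encodes the receptor for fractalkine and is carried by monocytes, above all the nonclassical ones that patrol vessels, and by many tissue macrophages. Itgax encodes the alpha chain of integrin CD11c, which is typical of dendritic cells and is also found on lipid-laden macrophages of the atherosclerotic wall. Monocytes that enter the wall lose Ly6c and other blood monocyte genes as they become macrophages, and macrophages that take up lipid induce lysosomal and matrix-degrading genes.

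In CPM, the usual scaling of counts to the library total, Cx3cr1 was at 105, 149, 137 and 117 in DP 1, DP 2, DN 3 and DN 6. Itgax was at 515, 391, 319.9 and 259 CPM in the same order, the order used for the chosen libraries throughout. Just outside the choice lay DP 4, at 11.7 CPM of Cx3cr1 and 47.9 CPM of Itgax. In the GFP libraries Cx3cr1 ranged from 97.6 to 151.5 CPM, around the chosen values, and Itgax from 95.0 to 231 CPM, below all 4. The chosen set thus matched GFP in Cx3cr1 and lay above it in Itgax. As both genes made the choice, no test of either is given. Genes that vary with them across the DP and DN libraries are tied to the choice as well. The p-values below therefore describe the separation of these chosen libraries, not of a sorted subset. Transcripts of both genes were this high in the libraries labelled DN 3 and DN 6, which goes against a label of cells without either reporter. Below, DP 1, DP 2, DN 3 and DN 6 are names of libraries by label, and no direction is drawn from the label DN.

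**Figure D1:**
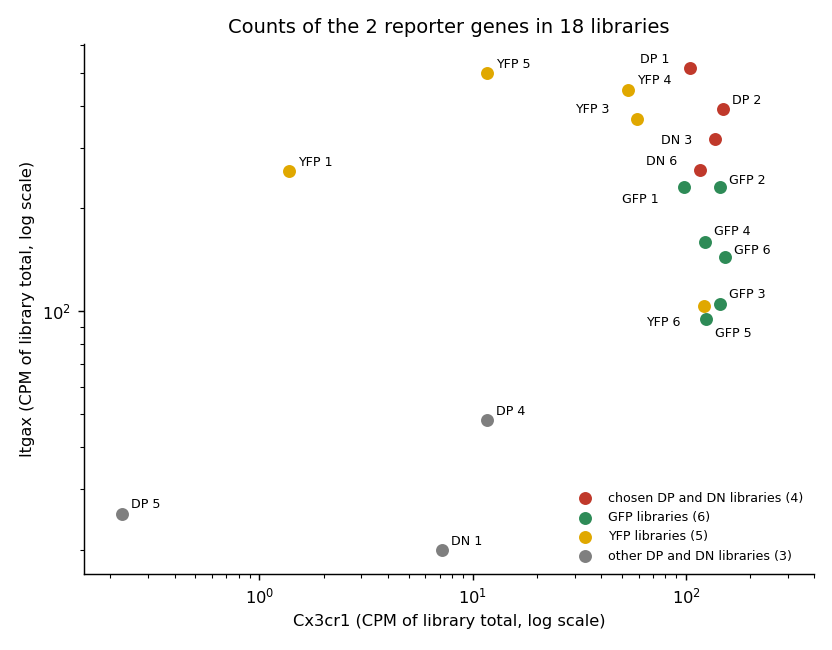
Cx3cr1 (horizontal axis) against Itgax (vertical axis) in all 18 libraries, in CPM of the library total on log scales; each point is 1 library, coloured by set. The 4 chosen libraries sit at the upper right, with Cx3cr1 of 104.7 to 148.6 CPM and Itgax of 259 to 515 CPM, while DP 4, DP 5 and DN 1 are far lower in both.

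The 4 chosen libraries expressed macrophage genes at levels that overlapped those of the GFP libraries. Csf1r, the receptor for the macrophage growth factor CSF1, was at 3320.4, 2494, 4723 and 2786 CPM against 2370.4 to 5192 (median 3319) in GFP, here and below after TMM scaling. Emr1, which encodes F4/80, was at 1209, 910.4, 1863 and 1558 CPM against 869 to 2126 (median 1403). The groups overlapped in both genes. Of 19 macrophage identity genes, 15 had a negative log2 fold change (52.4% of all genes did). None passed the unblocked test described next. The blocked one called 1 lower (1.88% of all genes), the transcription factor gene Maf (log2 fold change -1.02, edgeR adjusted p = 0.0497). The median log2 fold change of the 19 was -0.16 unblocked and 0.07 blocked, against -0.02 over all genes tested. Cd68 (log2 fold change -0.08, SE 0.37), Mertk (0.31, SE 0.27) and Fcgr1 (-0.50, SE 0.36) were all within the overlap. Apoe, deleted in these mice, still had counts, at 18.4, 26.6, 17.1 and 39.4 CPM against 23.0 to 58.1 (median 35.4) in GFP; reads outside a deleted part would not check the deletion.

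Set against GFP, the chosen libraries had less of the genes of blood monocytes and more of a small group of secreted and matrix proteins. With edgeR's quasi-likelihood test over 13796 genes, 21 genes (0.152%) had a Benjamini-Hochberg adjusted p under 0.05, of which 15 (0.109%) were lower and 6 (0.0435%) higher. The lower genes were S1pr5, Cd177, Slpi, Plac8, Pglyrp1, Ly6c2, Treml4, Ly6i, Hp, Gm9733, Dmkn, Cd300e, F10, Ifitm6 and Ceacam1. The higher genes were Comp, Lbp, Cxcl12, Sparc, Ly6c1 and Htra3. In all 21 the 4 chosen libraries lay wholly outside the range of the 6 GFP libraries, as did 1.73% of all genes tested. Given this, all 21 had to go the same way in DP 1 and 2 against GFP 1 and 2 as in DN 3 and 6 against GFP 3 to 6. Their agreement there adds no support.

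Libraries with the same replicate number resembled each other, as the plot of correlations by number shows. For DN 6 the number was not decisive: it correlated at 0.65 with GFP 6 and at 0.63 with GFP 5. Within numbers 3 to 6 these values were 0.40 and 0.48. When each chosen library was compared with the GFP library of its own number (the number as a block in the same edgeR test), 497 genes (3.60%) passed, 238 higher (1.73%) and 259 lower (1.88%), among them all 21. Of these 497, 495 went the same way in 4 of 4 numbered pairs, which a test on these same pairs favours, so it adds no support. Of all genes tested, 10.6% were higher and 12.4% lower in 4 of 4 pairs. Effects were moderate: 246 reached 1 log2 unit and 86 reached 2. In the blocked fit GFP 4 and GFP 5 carry no weight, since no chosen library has their number, and 3 residual degrees of freedom remain. Below, "unblocked" and "blocked" name the test behind each adjusted p. In bulk libraries fewer cells of a type and less RNA per cell cannot be told apart.

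**Figure D2:**
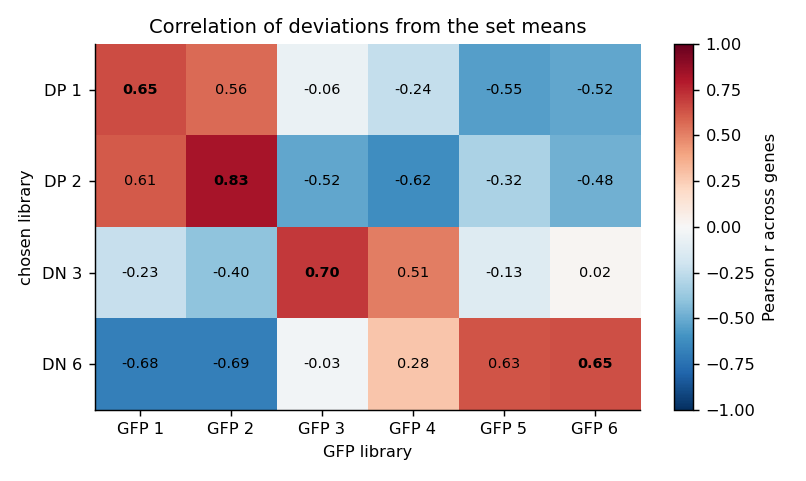
Pearson correlation across 13796 genes between the deviation of each chosen library (rows) and of each GFP library (columns) from its set's mean log expression; bold values share a replicate number. Same-numbered pairs reached 0.65 to 0.83, the highest in each row, though DN 6 was nearly as close to GFP 5 (0.63). Libraries of numbers 1 and 2 also resembled each other (0.56 and 0.61).

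Genes of classical blood monocytes were lower in the chosen libraries. Ly6c2, a surface protein that marks classical monocytes (chr15:75108158-75111970), was at 10.5, 7.95, 8.15 and 7.60 CPM in the chosen libraries and at 41.3 to 76.4 (median 55.6) in GFP. All 4 chosen libraries were close together and far below every GFP library. The log2 fold change was -2.75 (SE 0.26, edgeR adjusted p = 0.00193). It was -3.003 for DP 1 and 2 against GFP 1 and 2, and -2.65 for DN 3 and 6 against GFP 3 to 6. Plac8, a small cysteine-rich protein abundant in monocytes (chr5:100553725-100572245), was at 8.15, 10.1, 13.03 and 10.7 CPM against 52.3 to 101 (median 72.9), a log2 fold change of -2.85 (SE 0.28, edgeR adjusted p = 0.00193).

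Of 13 genes listed for classical monocytes, 12 were lower (52.4% of all genes were), with a median log2 fold change of -1.98. The unblocked test called 4 of the 13 lower (Ly6c2, Plac8, Hp and F10) and the blocked test 10, against 0.109% and 1.88% of all genes. Hp, the haemoglobin-binding protein haptoglobin, was at 12.6, 7.08, 22.3 and 23.4 CPM against 54.6 to 123 (median 82.4). F10, the precursor of coagulation factor Xa, was at 23.3, 18.4, 28.3 and 48.4 CPM against 97.4 to 127 (median 120.2), the highest chosen value being DN 6. Chi3l3, a chitinase-like secreted protein, fell by 3.52 on the log2 scale in the blocked edgeR test (adjusted p = 0.0125) but did not pass unblocked (adjusted p = 0.388). Ccr2, the receptor that brings classical monocytes out of the marrow, passed neither test, at 119.7, 176, 418 and 165 CPM against 156 to 467 (median 215), with overlapping groups. Fn1 (fibronectin) went the other way, at 2186, 1301, 2058 and 763 CPM against 469.9 to 1122 (median 953), and was higher in the blocked edgeR test (log2 fold change 0.69, adjusted p = 0.03).

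Genes of nonclassical, patrolling monocytes were lower too, although Cx3cr1 itself, their usual marker, matched GFP in these libraries, which were picked for high Cx3cr1. Treml4, a receptor of the TREM family (chr17:48264295-48275360), was at 4.89, 4.89, 7.70 and 8.27 CPM against 32.1 to 58.5 (median 44.0), a log2 fold change of -2.74 (SE 0.28, edgeR adjusted p = 0.00193). Cd300e, an activating receptor of monocytes (chr11:115051917-115062177), was at 4.89, 5.68, 6.37 and 4.92 CPM against 18.6 to 32.3 (median 23.2), a log2 fold change of -2.14 (SE 0.24, edgeR adjusted p = 0.00353). In both genes no chosen library reached the lowest GFP library. S1pr5, a receptor for sphingosine 1-phosphate that guides patrolling monocytes and NK cells out of the marrow, was at 0.601, 0.961, 0.518 and 0.522 CPM against 3.59 to 10.3 (median 7.89, edgeR adjusted p = 0.00375).

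Of the 13 nonclassical genes listed, 12 were lower (52.4% of all genes were), 2 were called lower unblocked (0.109% of all genes) and 7 blocked (1.88%), with a median log2 fold change of -1.21. Eno3, Emr4 and Ear2 did not overlap either, but each passed in the blocked test alone (edgeR adjusted p = 0.00132, 0.047 and 0.0384). Ace (angiotensin-converting enzyme) was at 27.5, 20.1, 30.0 and 9.31 CPM against 15.5 to 97.5 (median 47.1), with overlap through GFP 4 and GFP 5. Nr4a1, a nuclear receptor these monocytes depend on, was at 1569, 1618, 1172 and 853 CPM against 1394 to 2025 (median 1553) and passed neither test (edgeR adjusted p = 1 unblocked, 0.0655 blocked). Spn (CD43) was the 1 member that was not lower (log2 fold change 0.03, SE 0.37). Ear2 has near-identical copies, so its value is uncertain.

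Several other genes called lower are known from both monocytes and neutrophils. Slpi, an inhibitor of neutrophil elastase (chr2:164354070-164389095), was at 17.2, 9.35, 37.0 and 19.2 CPM against 113 to 273 (median 157), a log2 fold change of -3.13 (SE 0.43, edgeR adjusted p = 0.0142). Cd177, best known as a neutrophil surface protein (chr7:24743983-24760311), was at 2.92, 2.36, 9.18 and 1.42 CPM against 17.6 to 56.99 (median 37.7, edgeR adjusted p = 0.0424). Pglyrp1, a peptidoglycan-binding protein of granules, was at 2.06, 2.53, 2.30 and 4.47 CPM against 10.01 to 37.3 (median 17.4). The neutrophil list itself summed to 147 to 265 CPM in the chosen and 210 to 502 CPM in the GFP libraries. Of 12 tested members 11 were lower (52.4% of all genes were). Unblocked, 0 were called, and 2, Csf3r and Mmp8, were called lower in the blocked test (1.88% of all genes). The list's granule genes Camp, Ngp and Ltf were between 0.0858 and 22.7 CPM in the chosen libraries and reached 60.3 CPM (Ngp) in GFP. The part of neutrophil RNA in these values was not tested. Dmkn, Gm9733 and Ifitm6 fell by 2.24, 2.37 and 1.94 on the log2 scale in the unblocked test. Ceacam1, an adhesion molecule, was at 7.12, 7.87, 12.1 and 15.6 CPM against 29.6 to 52.8 (median 39.2).

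Within the Ly6 family the members went in opposite directions. Ly6c1, which endothelial and some stromal cells express along with leukocytes, was at 16.05, 13.3, 26.4 and 17.7 CPM against 3.12 to 6.15 (median 4.62) and was higher (log2 fold change 1.99, SE 0.27, edgeR adjusted p = 0.0142), while Ly6c2 and Ly6i were lower. Ly6i was at 1.46, 1.31, 1.33 and 1.64 CPM against 6.35 to 13.4 (median 9.04). Ly6c1 and Ly6c2 are near-identical, so reads may have been split between them in the counting, and the separate values are uncertain.

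**Figure D3:**
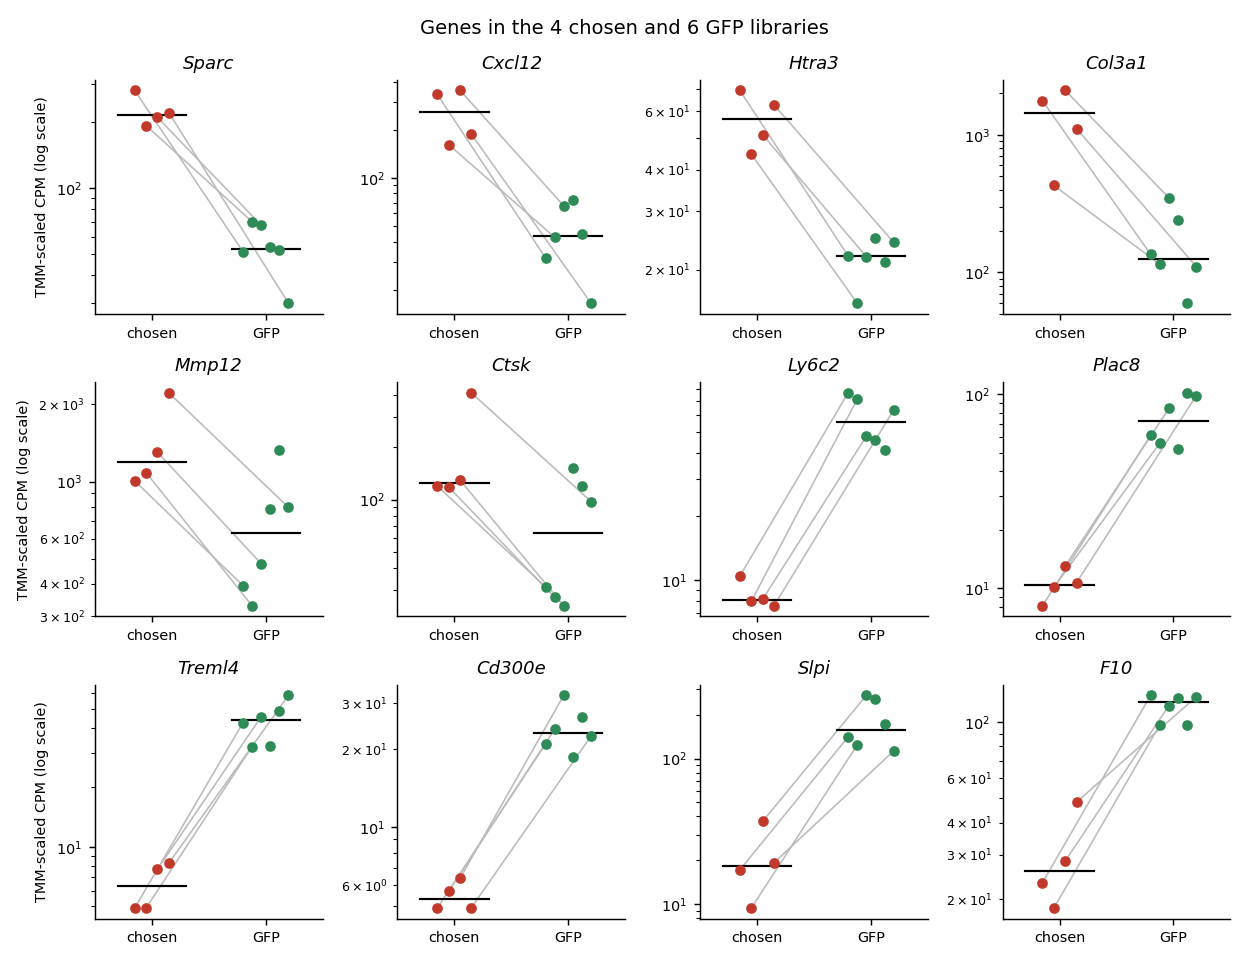
TMM-scaled CPM (log scales) of 12 genes in the 4 chosen (red) and 6 GFP (green) libraries; black bars are medians and grey lines join libraries with the same replicate number. Ly6c2, Plac8, Treml4, Cd300e, Slpi and F10 are lower and Sparc, Cxcl12, Htra3 and Col3a1 higher in every chosen library, while Mmp12 and Ctsk overlap between sets but are higher in 4 of 4 numbered pairs.

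Promoters are shown for 4 genes picked as examples: 2 monocyte genes, 1 protease and 1 chemokine. Sequences are from RefSeq (GRCm38.p6, which is mm10), 250 bases before to 50 after the start, on the gene's strand; capitals mark GGAAGT or its reverse complement, the core that ETS factors such as PU.1 read. Treml4 spans chr17:48264045-48264344 (plus strand), Cd300e chr11:115061990-115062289 (minus), Ctsk chr3:95498960-95499259 (plus) and Cxcl12 chr6:117168285-117168584 (plus).
Treml4: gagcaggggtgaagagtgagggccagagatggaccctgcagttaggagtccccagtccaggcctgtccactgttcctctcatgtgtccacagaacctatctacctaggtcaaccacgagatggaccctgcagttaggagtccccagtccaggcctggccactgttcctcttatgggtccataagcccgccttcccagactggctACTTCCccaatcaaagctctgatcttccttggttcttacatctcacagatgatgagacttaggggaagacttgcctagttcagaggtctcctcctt
Cd300e: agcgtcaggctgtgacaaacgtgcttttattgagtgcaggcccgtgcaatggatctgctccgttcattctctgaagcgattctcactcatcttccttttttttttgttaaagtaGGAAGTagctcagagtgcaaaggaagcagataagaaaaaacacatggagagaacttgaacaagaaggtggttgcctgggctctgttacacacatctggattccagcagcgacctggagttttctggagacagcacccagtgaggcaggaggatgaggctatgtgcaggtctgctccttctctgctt
Ctsk: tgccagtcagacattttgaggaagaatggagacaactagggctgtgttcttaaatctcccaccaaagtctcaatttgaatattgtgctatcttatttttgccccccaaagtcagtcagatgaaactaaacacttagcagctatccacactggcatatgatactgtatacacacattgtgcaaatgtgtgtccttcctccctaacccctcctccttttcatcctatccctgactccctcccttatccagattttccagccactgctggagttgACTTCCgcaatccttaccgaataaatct
Cxcl12: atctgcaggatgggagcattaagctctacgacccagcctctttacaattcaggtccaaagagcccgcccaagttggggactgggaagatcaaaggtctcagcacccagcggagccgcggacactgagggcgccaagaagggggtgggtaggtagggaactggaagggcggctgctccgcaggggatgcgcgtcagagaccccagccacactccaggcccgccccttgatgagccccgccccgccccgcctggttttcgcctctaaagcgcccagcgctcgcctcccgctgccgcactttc
The core occurred once each in Treml4 and Cd300e, which were lower, and in Ctsk, which was higher in the blocked test, and not in this window of Cxcl12. Either strand of GGAAGT occurs in 24.1% of all 27025 promoters of this length. As the 4 genes were picked, no share among them is set against this. AP-1 letters (TGACTCA or TGAGTCA, which are the same site on either strand) and the E-box CACGTG were found in none of the 4, against 5.17% and 7.24% of all promoters. RefSeq promoters matched 71.2% of the tested genes by symbol, under 80%, so a comparison of motif shares between called sets is void and is not given.

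Genes of resident vascular macrophages were lower as a group in the chosen libraries: all 18 listed genes had a negative log2 fold change (52.4% of all genes did), with a median of -0.91. None passed unblocked, where the smallest adjusted p was 0.209 (edgeR, Cbr2). In the blocked test 9 of 18 were lower (1.88% of all genes), and 11 of 18 were lower in 4 of 4 pairs (12.4% of all genes were). Cd163, the haemoglobin scavenger receptor (chr6:124304656-124330527), was at 23.0, 22.6, 106 and 23.4 CPM against 108 to 391.7 (median 128). The groups did not overlap for Cd163, with DN 3 just below the lowest GFP library, nor for Cbr2, a carbonyl reductase, and the blocked log2 fold change was -2.45 (SE 0.18, edgeR adjusted p = 6.56e-05). Lyve1, a hyaluronan receptor that marks macrophages of the outer vessel wall, was at 6.61, 12.5, 70.5 and 27.0 CPM against 27.9 to 241 (median 82.7). DN 3 was the highest chosen library and GFP 3 the highest GFP library for Lyve1, so that the sets overlapped while each pair differed (blocked log2 fold change -1.95, SE 0.13, edgeR adjusted p = 2.42e-05).

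F13a1 (the A chain of coagulation factor XIII) showed the same pattern, at 92.8, 115, 784 and 202 CPM against 460.4 to 2906 (median 728), a blocked log2 fold change of -2.17 (edgeR adjusted p = 8.64e-06). Cbr2 and Vsig4, a complement receptor of tissue macrophages, fell by 2.16 and 2.02 on the log2 scale in the blocked test. Mrc1, the mannose receptor CD206, was at 195, 192, 541 and 134 CPM against 299.8 to 956 (median 389.6), a blocked log2 fold change of -1.03 (edgeR adjusted p = 0.00132). Pf4, Timd4 and Sepp1 were the other called members. Folr2, a folate receptor often used beside Lyve1, was lower by less, with a blocked log2 fold change of -0.50 (SE 0.23, edgeR adjusted p = 0.386).

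Of the 6 genes called higher without the block, 5 encode secreted proteins, all but Ly6c1. Sparc, a collagen-binding matrix protein (chr11:55394500-55423183), was at 279.9, 193, 211 and 222 CPM against 29.8 to 70.4 (median 53.0). Every chosen library was well above every GFP library (log2 fold change 2.06, SE 0.24, edgeR adjusted p = 0.00375). Cxcl12, the chemokine that retains leukocytes through CXCR4 (chr6:117168535-117181367), was at 333, 162, 353 and 187 CPM against 16.5 to 72.6 (median 43.6), a log2 fold change of 2.50 (SE 0.39, edgeR adjusted p = 0.0299). Htra3, a secreted serine protease (chr5:35652023-35679782), was at 69.3, 44.6, 50.9 and 62.7 CPM against 15.8 to 24.8 (median 21.9), a log2 fold change of 1.39 (SE 0.20, edgeR adjusted p = 0.0177). Comp, cartilage oligomeric matrix protein, was at 43.8, 44.3, 62.9 and 43.0 CPM against 1.995 to 16.2 (median 7.67), and Lbp, which presents lipopolysaccharide to CD14, at 56.6, 14.9, 55.9 and 32.8 CPM against 2.94 to 9.13 (median 7.43). DP 2 was the lowest chosen library for Lbp.

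The fibroblast list went with them. Of its 12 genes 11 were higher (47.6% of all genes were), with a median log2 fold change of 2.05, and 6 did not overlap between sets (0.906% of all genes were higher without overlap). The list summed to 2299 to 5852 CPM in the chosen and 1117 to 2089 CPM in the GFP libraries, and none of its members was at 0 in every library. Unblocked, 0 of 12 were called by edgeR, with the nearest at an adjusted p of 0.0508 (Col3a1) and 0.0523 (Col1a1). Col3a1, of type III collagen, was at 1772, 429, 2106 and 1108 CPM against 59.7 to 348 (median 125), and Col1a1, of type I collagen, at 797, 249, 467 and 371 CPM against 13.8 to 109 (median 64.8). Blocked, Col3a1, Lum, Gsn and Fbln1 were called higher (1.73% of all genes were). Pdgfra, a defining receptor of fibroblasts, was at 58.6, 17.9, 62.0 and 10.3 CPM against 0.911 to 17.1 (median 9.97). The part of fibroblast RNA in the higher genes was not tested. Smooth muscle genes did not go with them: 2 of 12 were higher (47.6% of all genes were), with a median log2 fold change of -0.39 and sums of 133 to 422 CPM against 107 to 454 CPM.

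Genes of lipid-laden, TREM2-high macrophages were higher pair by pair but not between the sets as a whole. Of 17 listed genes, 13 were higher in 4 of 4 pairs (10.6% of all genes were), 8 were called higher (1.73% of all genes) and 0 lower in the blocked test, and 0 were called unblocked, the median log2 fold change being 0.24 unblocked and 0.50 blocked. Mmp12, macrophage elastase (chr9:7344381-7369499), was at 1008, 1085, 1302 and 2216 CPM in the chosen libraries and at 395, 329, 480.1, 782, 1322 and 794 CPM in GFP 1 to 6. GFP 5 reached into the chosen range, while each pair differed (blocked log2 fold change 1.498, SE 0.10, edgeR adjusted p = 2.42e-05; unblocked 0.816). Lpl, lipoprotein lipase, was at 659, 784, 662 and 1422 CPM against 341 to 1052 (median 453), a blocked log2 fold change of 0.94 (edgeR adjusted p = 0.000611). Spp1 (osteopontin) was at 5261, 4584, 6569 and 29341 CPM against 2832 to 20105 (median 7241) and rose by less, with a blocked log2 fold change of 0.67 (SE 0.09, edgeR adjusted p = 0.00201).

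DN 6 was the highest chosen library for this list, and without it the unblocked median of the list was -0.36. Atp6v0d2, part of the pump that acidifies lysosomes, rose by 1.28 and Cd5l, a macrophage apoptosis inhibitor, by 1.29 on the blocked log2 scale. Trem2 itself was at 321, 401, 249 and 916 CPM against 233 to 739 (median 304) and Gpnmb, a lysosomal glycoprotein, at 882, 396, 473 and 2215 CPM against 255 to 2211 (median 592), and neither passed the blocked test (edgeR adjusted p = 0.0597 and 0.313). Cd36, a scavenger receptor for oxidised lipoprotein, was lower in 4 of 4 pairs without a call (blocked log2 fold change -0.50, SE 0.13, edgeR adjusted p = 0.076).

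Proteases that digest matrix went the same way. Of 16 listed matrix protease and inhibitor genes, 13 were higher (47.6% of all genes were) and 6 were called higher in the blocked test (1.73% of all genes), with 1 lower (Mmp8, the neutrophil collagenase). Ctsk, the collagen-degrading cathepsin K (chr3:95499256-95509362), was at 119.8, 118, 129.5 and 413 CPM in the chosen libraries and at 31.3, 27.2, 24.4, 152, 119 and 97.4 CPM in GFP 1 to 6. Against its own number each chosen library was higher (blocked log2 fold change 2.14, SE 0.12, edgeR adjusted p = 7.27e-06), while GFP 4 and GFP 5 reached into the chosen range (unblocked adjusted p = 1). Mmp2, a gelatinase that fibroblasts also make, was at 121, 55.4, 171 and 71.6 CPM against 10.6 to 43.8 (median 24.7) without overlap (blocked log2 fold change 2.04, edgeR adjusted p = 0.000726). Mmp14, its membrane-bound activator, rose by 0.55 and the inhibitor Timp2 by 0.47 on the blocked log2 scale. The blocked test also called 6 of 23 lysosomal genes higher (1.73% of all genes) and 0 lower, Ctsl (0.74), Ctsd (0.50) and Lipa (0.50, lysosomal acid lipase) among them, though the unblocked median of the list was 0.02.

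**Figure D4:**
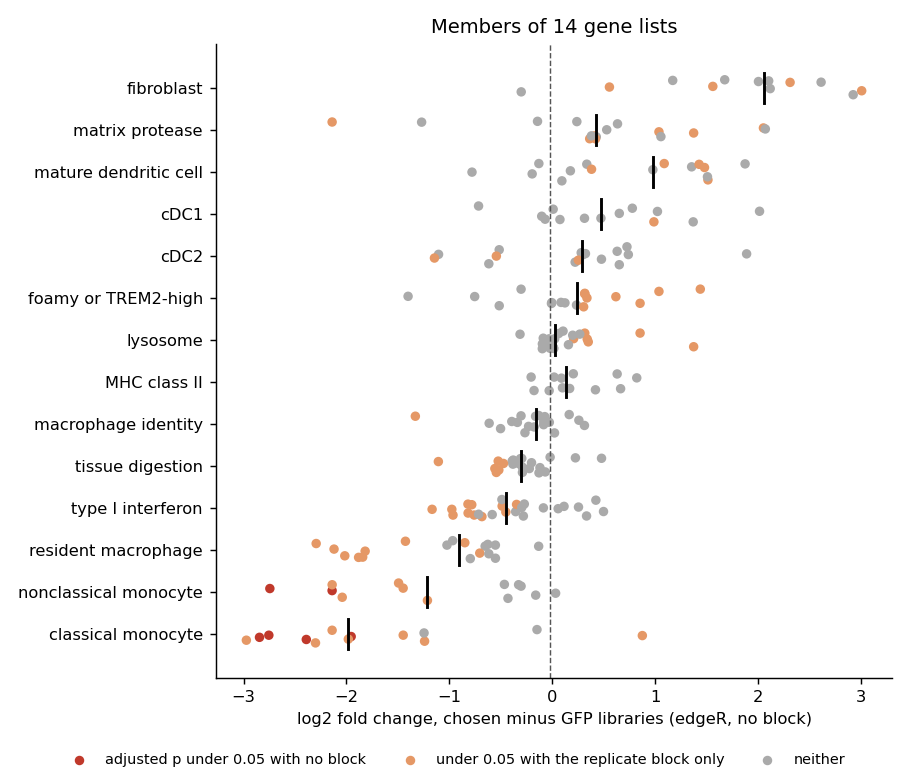
Unblocked log2 fold change (chosen minus GFP libraries, horizontal axis) of each tested member of 14 gene lists; black bars are list medians, the dashed line is the median of all genes tested (-0.02) and colour gives the edgeR calls. Monocyte and resident macrophage lists lie to the left (medians of -1.98, -1.21 and -0.91) and the fibroblast list to the right (2.05). The other lists of the 37 are not drawn, and their medians ran from -1.71 (T cell genes) to 0.79 (adipocyte and mesothelial genes). Of these, NK and ILC (-1.10), mast cell and eosinophil (-1.08) and neutrophil genes (-0.82) also lay to the left, and B cell genes (0.57) to the right.

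Some genes shared with dendritic cells were higher. Cadm1, an adhesion molecule of cross-presenting dendritic cells, was at 93.1, 86.2, 66.2 and 104 CPM against 31.8 to 64.2 (median 42.2) with no overlap (blocked log2 fold change 1.19, SE 0.13, edgeR adjusted p = 0.0005). Cd207 (langerin) was at 51.1, 46.6, 60.1 and 47.0 CPM against 14.2, 11.2, 16.5, 93.9, 36.8 and 11.2 in GFP 1 to 6, where GFP 4 was highest of all 10 (blocked log2 fold change 1.96, edgeR adjusted p = 2.42e-05; unblocked 1). In the mature dendritic cell list 12 of 15 were higher (47.6% of all genes were), with a median log2 fold change of 0.98, and the blocked test called 5 higher (1.73% of all genes). The median was 0.43 without DP 2, 0.43 without DN 3 and 0.36 without the genes that another list also holds. Of the called genes, Ccr7, the receptor that guides mature dendritic cells to lymph nodes, was at 396, 317, 117 and 31.4 CPM against 180.4, 164, 27.1, 60.9, 10.2 and 10.4 in GFP 1 to 6 (blocked log2 fold change 1.43, edgeR adjusted p = 0.00188). Numbers 1 and 2 were high for Ccr7 in both sets. Fscn1, Ccl22 and Il12b rose by 1.43, 1.52 and 1.45 on the blocked log2 scale, but Fscn1 had a log2 fold change of -0.23 when DN 3 and 6 alone were set against all GFP libraries.

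Among 13 cDC1 genes 10 were higher (47.6% of all genes were), with a median log2 fold change of 0.47. The blocked test called 1 higher, Cadm1 (1.73% of all genes). Xcr1 and Clec9a, defining genes of these cells, were at most 11.7 and 2.53 CPM in any of the 10 libraries. Among 16 cDC2 genes 11 were higher (47.6% of all genes were), with a median of 0.29. The blocked test called Tnip3 higher (1.73% of all genes) and Kmo and Ltb lower (1.88%). By edgeR 0 of 12 MHC class II genes were called, unblocked or blocked (0.152% and 3.60% of all genes were). At those shares a list of 12 may hold no call, so nothing is drawn from this. Of the 12, 8 were higher in 4 of 4 pairs (10.6% of all genes were). The list median was 0.13. The part of dendritic cell RNA in the higher genes was not tested.

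Chemokine ligand genes changed in both directions. Beside Cxcl12, the blocked test called Cxcl14, Cxcl16 and Ccl22 higher and Ccl7, Ccl12 and Ccl24 lower among 21 ligands. Of all genes, that test called 1.73% higher and 1.88% lower, shares that apply to the receptors below too. Cxcl14 was at 38.5, 40.6, 43.1 and 44.4 CPM against 15.7 to 34.4 (median 21.0) without overlap (edgeR adjusted p = 0.213 unblocked, 0.00121 blocked). The monocyte-attracting chemokine Ccl7 was at 289.8, 384, 991 and 854 CPM against 423 to 2006 (median 1477), and its relative Ccl2 at 281, 352, 654 and 698 CPM against 343 to 1245 (median 887) was not called (blocked edgeR adjusted p = 0.114). Among 14 tested receptors other than Cx3cr1, Ccr7 and Cxcr7, a scavenger of Cxcl12, were higher and Ccr1 lower in the blocked test. Ccr1 was at 66.0, 65.4, 147 and 149.7 CPM against 118 to 318 (median 267), a blocked log2 fold change of -0.96 (edgeR adjusted p = 0.000523).

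Cytokines also differed by gene. Osm (oncostatin M) was at 515, 597, 429.6 and 425 CPM against 652 to 944 (median 817), below every GFP library (blocked log2 fold change -0.71, edgeR adjusted p = 0.00237), whereas Tnf rose by 0.46 and Il6 by 0.82 in the same test. Inhba, the activin A subunit, was at 24.6, 19.9, 58.4 and 24.9 CPM against 72.0 to 296 (median 126), again without overlap (blocked log2 fold change -2.31, SE 0.13, edgeR adjusted p = 7.27e-06; unblocked 0.0935). Thbs1 (thrombospondin 1) was at 615, 368, 1505 and 334 CPM against 719 to 4266 (median 3139.7), DN 3 lying above GFP 5 (blocked edgeR adjusted p = 0.0143). Of the leukocyte integrins, Itgal (the alpha chain of LFA-1) and Itgb7 fell by 1.78 and 0.94 in the blocked test (1.88% of all genes were called lower). Itga5, a fibronectin receptor chain, was the 1 called higher of 13 (1.73% of all genes were).

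Type I interferon response genes were mostly lower. Of 25 genes 19 had a negative log2 fold change (52.4% of all genes did), with a median of -0.45, and the blocked test called 11 lower (1.88% of all genes) and 0 higher. None was called by edgeR unblocked, where Irf7 had the smallest adjusted p of 0.185. Irf7, the master transcription factor of this response, was at 105, 96.1, 90.9 and 108 CPM against 151 to 205 (median 161) and did not overlap (blocked log2 fold change -0.79, SE 0.12, edgeR adjusted p = 0.00531). Zbp1 and Cmpk2 did not overlap either. Oas2, an antiviral enzyme that senses double-stranded RNA, fell by 0.90 on the log2 scale in the blocked test.

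Genes that tissue digestion induces moved with the sets as well: 20 of 22 were lower in the chosen libraries (52.4% of all genes were), with a median log2 fold change of -0.30, sums of 36833 to 41074 CPM against 40099 to 56857 CPM, and 6 called lower in the blocked test (1.88% of all genes). Ier3, an immediate early gene, was at 217, 270.3, 305 and 444 CPM against 475 to 883 (median 625.1) without overlap (blocked edgeR adjusted p = 0.000413). Their part in the genes called lower was not tested. Mast cell proteases were lower too: Cpa3 was at 0.172, 0, 0.148 and 0.596 CPM against 0.307 to 54.2 (median 8.38), and the mast cell and eosinophil list summed to 14.7 to 50.9 CPM against 56.995 to 229 CPM. Of its 10 tested genes 7 were lower (52.4% of all genes were), with a median log2 fold change of -1.08. The blocked test called 3 of them lower (1.88% of all genes). T cell genes summed to 146 to 338 CPM against 179 to 534 CPM. Of 16 tested, 13 were lower (52.4% of all genes were), with a median log2 fold change of -1.71. The median was -2.67 for DP 1 and 2 against GFP 1 and 2, and 0.16 for DN 3 and 6 against GFP 3 to 6. Cd3e, which was highest in GFP 1 and GFP 2, was at 1.63, 1.49, 3.11 and 1.04 CPM against 43.8, 29.5, 4.53, 1.18, 0.444 and 0.152 CPM in GFP 1 to 6. By edgeR 0 of 16 were called, unblocked or blocked (0.152% and 3.60% of all genes were). At those shares a list of 16 may hold no call. Of 10 tested NK and ILC genes 8 were lower, with a median of -1.10 (-2.13 and 0.51 by number set). The blocked test called 1 of them lower. B cell genes summed to 140 to 193 CPM against 114 to 209 CPM, and endothelial genes to 68.0 to 133 CPM against 57.5 to 122 CPM. Of 12 tested B cell genes 10 were higher (47.6% of all genes were), with a median log2 fold change of 0.57. Of 11 tested endothelial genes 6 were higher, with a median of 0.38. Hba-a1 and Hbb-b1, of red cells, were at 0 throughout. None of these cells' part in the results was tested.

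The chosen set joins DP 1 and 2 with DN 3 and 6, and each pair was also compared with the GFP libraries of its own numbers. DP 1 and 2 against GFP 1 and 2, and DN 3 and 6 against GFP 3 to 6, share no library. Both are contrasts of 1 edgeR fit over all 10 libraries, so they share its filter, scaling and dispersions and are not independent. Each called 1 gene at an adjusted p under 0.05 (0.00725%), Ly6c2 in both, with 292 and 604 genes at an unadjusted p under 0.05. The difference between these comparisons was called for 0 genes (0.00%) by edgeR, by DESeq2 and by limma voom, with 98, 147 and 167 genes at an unadjusted p under 0.05. Label and number set cannot be told apart in this test. With the number set (1 and 2, or 3 to 6) as a term over all 10 libraries, 36 genes (0.261%) were called, 11 higher (0.0797%) and 25 lower (0.181%). Across all 13796 genes the log2 fold changes of the comparisons had a Pearson r of 0.351, a description across genes, which are not independent. Plac8 differed by -2.68 and -2.82, Treml4 by -2.93 and -2.53, Sparc by 1.96 and 2.09, and Cxcl12 by 2.74 and 2.43. Nkg7, of cytotoxic lymphocytes, was at 1.97, 2.01, 1.63 and 1.34 CPM in the chosen and 131, 74.8, 5.25, 1.66, 1.72 and 0.304 CPM in GFP 1 to 6, with log2 fold changes of -5.69 and -0.57 (adjusted p of the difference 1, edgeR). It was high in GFP 1 and GFP 2.

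**Figure D5:**
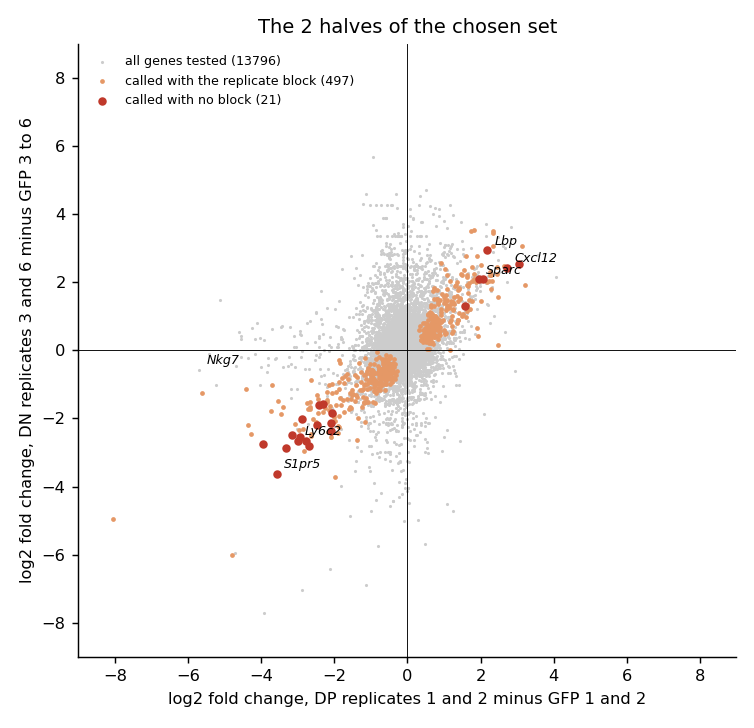
Log2 fold change of each tested gene in DP 1 and 2 against GFP 1 and 2 (horizontal) and in DN 3 and 6 against GFP 3 to 6 (vertical); colours mark the 497 genes called with the block and the 21 called without it. All 21 lie in the lower left or upper right quadrant, where both comparisons have the same sign, which follows from their lack of overlap between the sets.

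The remaining libraries are given for scale, as CPM of the library total, and were not tested. In the 4 YFP libraries other than YFP 6, which held 289166 counts, Mmp12 was at 2266 to 5346 CPM and Ctsk at 422 to 1237 CPM, above the 1103 to 1901 and 123 to 355 CPM of the chosen libraries, while GFP was at 404 to 1118 and 23.7 to 134 CPM and reached into the chosen range in both. Cadm1 was at 82.6 to 123 CPM in YFP, 63.1 to 102 in the chosen set and 32.2 to 54.3 in GFP. Treml4 stayed low in YFP at 0.488 to 16.5 CPM, and so did Hp at 1.42 to 28.3 CPM. Ly6c2 and Plac8 varied more there, at 0.900 to 53.4 and 6.64 to 77.0 CPM.

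In the 3 DP and DN libraries left out of the choice, Ly6c2 was at 92.8 to 215 CPM and Plac8 at 81.9 to 985 CPM, far above the chosen 6.52 to 11.5 and 8.92 to 12.4 CPM. Low Ly6c2 and Plac8 thus depended on which DP and DN libraries were chosen. Csf1r was lower than in the chosen libraries (2391 to 4503 CPM), at 263 to 1389 CPM in the 3 left out. Sparc was at 139 to 1177 CPM in them and at 60.1 to 1218 CPM in YFP, so that high Sparc was not limited to the chosen libraries.

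The chosen libraries were shallower, with 9790946 to 15643933 counts against 11066213 to 21674877 in the GFP libraries. Of the 6 GFP libraries 5 were deeper than every chosen library, and all 4 chosen libraries had fewer counts than the GFP library of their number. With counts thinned to the smallest total, 26 genes were called unblocked, among them all 21. Genes detected differed by number rather than by set: 19245 to 21448 in numbers 1 and 2 and 14545 to 16450 in numbers 3 to 6. Leaving out 1 library at a time gave 7 to 18 unblocked calls, the fewest without DP 1 (7) and without DN 3 (9). Fitted alone against all GFP libraries, DP 1 and 2 gave 8 calls and DN 3 and 6 gave 0 (337 genes at an unadjusted p under 0.05). In each of these fits all 21 genes kept their direction, which their lack of overlap between the sets largely fixes.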

How the data were processed

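Gene counts of 18 libraries were used, 10 of them in the comparison. Per the labels' protocols, RNA of sorted cells was amplified with SMART-seq v4 (11 cycles) and made into Nextera XT libraries. HTSeq 0.7.1, SAMtools, TopHat 1.4.1 and the build mm10 are named in the submitters' processing notes. Annotation and strand are not given in the sources used here. Overlapping and antisense genes therefore cannot be told apart. The authors deposited whole-number counts of 23337 gene symbols, not normalized, and all columns matched a sample by name. The counts carry no molecular identifiers. Every pair of replicates differed by more than sampling noise (lowest chi-square over degrees of freedom, 25.3).

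The 4 chosen libraries, the gene lists (37, with 590 of 591 entries matched) and the comparisons were chosen with earlier results of these data known. Cx3cr1 and Itgax made the choice and were left out of all lists. They stayed in the fit and among the genes tested, so counts over all genes can include them. No test of either is given. Genes were kept by filterByExpr (13796 tested), scaled by TMM (factors 0.846 to 1.234) and tested with the robust quasi-likelihood test of edgeR 4.0.16 in R 4.3.3, with 1 mean per set and Benjamini-Hochberg adjustment over all genes tested at a threshold of 0.05. The common dispersion was 0.325. Standard errors (SE) follow from each fold change and its F value. Lists were described by counts and medians, with no test. The fit was tested on simulated data with known changes.

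Replicate numbers, taken from the labels, were checked for pairing: deviations from the set means correlated at 0.65, 0.83, 0.70 and 0.65 for the 4 same-numbered pairs, so the number was also fitted as a block, with a dispersion of 0.0433. The labels do not say what a number stands for. Within numbers 3 to 6, DN 6 correlated at 0.40 with GFP 6 and at 0.48 with GFP 5.

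Named genes were Cx3cr1, Itgax and Apoe, up to 15 called genes per direction with at least 20 CPM in the higher set and no overlap (filled to 10), up to 3 members with the smallest p of each list, and 5 genes per direction and 5 for the difference from the comparisons by number set. The 20 largest blocked changes per direction were added after the data were seen. Other genes were named after their values were seen. Coordinates are from GENCODE vM21 on mm10, matched by symbol, for 140 of 145 named genes; they span the whole gene, exons and introns. Alternatives were RLE scaling, other filters, DESeq2 1.42.0, limma 3.58.1 (voom), thinning, a number-set term, all 18 libraries and leaving out each library. Python 3.11.15, pandas 2.3.3 and matplotlib 3.10.9 were used for tables and figures.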

Additional observations from a re-analysis of the deposited data

Results flagged for a closer look

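List levels here are means of log2(CPM + 1) over the list. In 120 groups of 4 or 6 libraries checked for 1 library standing apart from the others, 8 were found; chance gives about 1 in 20. The foamy macrophage list was at 9.43 in DN 6, above 7.84 to 8.03 in the other chosen libraries. The inflammatory cytokine list was at 9.604 in DN 3 against 8.63 to 8.75 in the other chosen libraries. Smooth muscle genes were at 4.40 in DP 2 against 2.91 to 3.05, and endothelial genes were at 2.98 in DP 2 against 1.77 to 1.96. Comp was at 62.9 CPM in DN 3 and at 43.0 to 44.3 CPM in the other chosen libraries.

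GFP 3 stood above the other GFP libraries in the classical monocyte list (7.11 against 6.26 to 6.49), the interferon list (6.34 against 5.57 to 5.78) and the cholesterol synthesis list (4.94 against 4.44 to 4.60).

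Differences in opposite directions by number set appeared in 2 lists. The cDC2 list differed from GFP by a mean of -0.17 in DP 1 and 2 and by 0.19 in DN 3 and 6, each pair going the same way within its set. The NK and ILC list differed by -1.83 and by 0.15 in the same way. These differences were not tested.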

How the results depend on the processing

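The 6 genes called higher and 15 called lower by edgeR became 15 and 20 without the filter on low counts, 79 and 86 with DESeq2, and 11 and 25 with the number set as a term. With all 18 libraries in the edgeR fit 0 and 0 were called (166 genes at an unadjusted p under 0.05). With GFP libraries of the same 4 numbers only there were 1 and 8 calls, for DP 1 and 2 alone 1 and 7, and for DN 3 and 6 alone 0 and 0 (337 at an unadjusted p under 0.05). Leaving out 1 library at a time gave 1 to 7 higher and 6 to 14 lower. With the replicate block, which the number check pointed to, 238 genes were higher and 259 lower. The blocked counts were 265 and 237 with RLE scaling, 616 and 511 without the filter, 512 and 346 with DESeq2, 297 and 280 with limma voom, and 254 and 282 with thinned counts. Blocked and without pair 1, 2, 3 or 6 they were 115, 159, 100 and 381 higher and 153, 119, 130 and 361 lower; these further settings of the block were chosen after the data were seen. The 1 gene called for DP 1 and 2 against GFP 1 and 2 became 2 with RLE scaling, 11 without the filter, 57 with DESeq2 and 2 without robust fitting, and 0 to 6 when a library was left out. The 1 gene for DN 3 and 6 against GFP 3 to 6 became 3 with RLE scaling, 7 without the filter, 84 with DESeq2, 0 with limma voom (678 genes at an unadjusted p under 0.05) and 2 with thinned counts, and 0 to 1 when a library was left out. The cause of these shifts was not tested. Of 143 named genes with a fold change, none called without the block changed direction under any alternative run, which their lack of overlap between the sets largely fixes. Direction changed under at least 1 alternative for Arpc5, Ciita, Fscn1, H2-Oa, Itga2b, Lep and Msln. Among the list medians, that of foamy macrophages was 0.24, and -0.36 without DN 6. That of resident macrophages was -0.91, with -0.58 without GFP 5 and -1.40 without DN 6, and that of cDC1 genes was 0.47, with 0.17 without DP 2 and 0.88 without DN 6. Depth limits what could be tested: 13796 of 23337 genes had enough counts for the filter.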

Other observations

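Of 13 scavenger receptor and lipid uptake genes, 11 were lower (52.4% of all genes were) and 8 were lower in 4 of 4 pairs (12.4% of all genes were), with a median log2 fold change of -0.30. The blocked edgeR test called Olr1 lower and Lpl higher among them (1.88% of all genes were called lower and 1.73% higher). In the same test Lipa was the 1 gene called higher and Apoc2 the 1 called lower of 15 cholesterol efflux and storage genes, and 0 of 18 cholesterol synthesis genes were called. Apoc2, an activator of lipoprotein lipase, was at 2.23, 1.31, 1.11 and 4.92 CPM in the chosen libraries and 9.77 to 41.8 (median 15.3) in GFP, without overlap (blocked adjusted p = 0.000389). The lectin-like receptor Olr1, which binds oxidised lipoprotein, was at 20.5, 13.8, 35.3 and 12.7 CPM against 24.2 to 85.0 (median 34.1) (blocked adjusted p = 0.005). Mfge8, which bridges dying cells to phagocytes, was at 272, 126, 105 and 436 CPM against 67.1 to 127 (median 102) (blocked adjusted p = 0.047), while Axl, at 849, 626, 1097 and 634 CPM against 389.5 to 858 (median 549), was not called (0.084). Of 16 tested efferocytosis genes Mfge8 was the 1 called higher in the blocked test, and 2 were called lower (1.73% and 1.88% of all genes). The blocked median log2 fold change of the 16 was -0.09. Complement C3 was at 1754, 442, 1379 and 355 CPM against 59.7 to 414 (median 262) (blocked adjusted p = 0.0271). It was the 1 gene called of 14 complement and Fc receptor genes in that test. Of the 14, 9 had a negative unblocked log2 fold change (52.4% of all genes did). Of 20 proliferation genes 0 were called, unblocked or blocked (0.152% and 3.60% of all genes were). At those shares a list of 20 may hold no call, so nothing is drawn from this. Of the 20, 13 were higher (47.6% of all genes were), with a median log2 fold change of 0.15.

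A few genes known from osteoclasts, chosen after their values were seen, are given as values. Dcstamp, a fusion protein, was at 189, 284, 243 and 141 CPM against 35.4 to 161 (median 84.2), and Acp5, tartrate-resistant acid phosphatase, at 224, 153, 182 and 356 CPM against 104 to 341 (median 167). Both overlapped between the sets.

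Cytotoxic lymphocyte genes stood out in GFP 1 and GFP 2: Gzmb was at 84.5, 30.8, 1.55, 0.749, 0.277 and 0 CPM in GFP 1 to 6 and at 1.46, 0.874, 0.518 and 0 CPM in the chosen libraries.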
